A study of Mus musculus with 9 samples.

Results

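The aldo-keto reductase families Akr1b and Akr1c were followed in the livers of female mice, as 10 genes: Akr1b3, Akr1b7, Akr1b8, Akr1b10, Akr1c6, Akr1c12, Akr1c13, Akr1c14, Akr1c18 and Akr1c19. The members were taken by gene symbol from a table of 55401 genes, and they had been selected on measured values of these same livers. Their levels, fold changes and calls are therefore given as a description, with no p-value. All 10 members passed the filter on low counts, as did 15717 genes in all.

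RNA sequencing covered 9 livers in 3 groups of 3, called here healthy, untreated HCC and miR-22-treated HCC. Hepatocellular carcinoma (HCC) had been induced by hydrodynamic tail vein injection of Sleeping Beauty transposon plasmids, which integrate into the genome of hepatocytes. The design names RAS/AKT-induced tumors, while the growth protocol lists plasmids for myristoylated AKT, N90-β-catenin and Nras-v12 together with the SB11 transposase. AAV8-miR-22, or AAV8 blank control in untreated HCC, was given 1 week after the oncogenes, and these livers were collected at 5 weeks. Healthy livers had received neither plasmids nor AAV8, so that tumor, injection and vector cannot be told apart in a comparison with them. The protocol gives 6 weeks as the age at which mice were obtained, for all groups, and the age of healthy mice at collection is not given in the labels, so that an age difference cannot be told apart either. The strain is written C57BL/6 in the sample labels and FVB/N in the protocol. The labels do not say from which part of a liver RNA was taken.

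Aldo-keto reductases are NADPH-dependent enzymes that reduce aldehydes and ketones to alcohols. The Akr1b branch includes aldose reductase, the entry enzyme of the polyol pathway, and relatives that reduce lipid aldehydes and retinal. The Akr1c branch holds hydroxysteroid dehydrogenases, which switch steroid hormones between active and inactive forms, and enzymes that act on bile acids, prostaglandins and foreign compounds. The liver is a main site of such steroid and aldehyde clearance.

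The Akr1b members lie together on chromosome 6 and the Akr1c members on chromosome 13, as placed in GRCm39 by GENCODE vM39. The Akr1b cluster spans 121.1 kb and runs Akr1b3 (chr6:34279369-34294434, where the gene is named Akr1b1), Akr1b8 (chr6:34331054-34345409), Akr1b10 (chr6:34361153-34374663) and Akr1b7 (chr6:34389021-34400449). The Akr1c members span 408.9 kb and run Akr1c14 (chr13:4099002-4141081), Akr1c18 (chr13:4182614-4200672), Akr1c13 (chr13:4241149-4255602), Akr1c19 (chr13:4278699-4302842), Akr1c12 (chr13:4318168-4329432) and Akr1c6 (chr13:4484305-4507876). The cluster goes on beyond Akr1c6 with Akr1c20 (chr13:4536842-4573354) and Akr1c21 (chr13:4624074-4636542), which are not members. No other protein-coding gene lies within either span. Akr1b3, Akr1c18 and Akr1c12 are on the minus strand, and the rest are on the plus strand. Each Akr1b member has 10 exons and 948 coding bases before the stop codon, and each Akr1c member has 9 exons and 969.

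The nearest copies are Akr1c12 and Akr1c13, whose coding sequences were identical at 96.2% of aligned columns. Akr1b7 and Akr1b10 were identical at 89.2%, Akr1b8 and Akr1b10 at 85.1%, and Akr1b7 and Akr1b8 at 85.0%. Akr1c18 was identical at 76.7% to Akr1c6 and at 76.4% to Akr1c14. Reads from such copies can be assigned to the wrong gene. Of the 31-base words of its main transcript, 58.6% were found in no other gene for Akr1c12, 60.1% for Akr1c13, 85.6% for Akr1b10, 85.5% for Akr1b8, 91.8% for Akr1c6 and 95.8% for Akr1c18. Akr1b3 shared 91.5% of its words with other genes, most of them with Gm38056, an uncurated transcript on chromosome 1. Gm38056 itself held 0 to 9 counts per liver. Libraries were non-directional, so in the exon parts that overlap, reads of Akr1b7 and Akr1b8 cannot be told apart from those of the antisense RNAs Gm68356 and Gm68435, nor reads of Akr1c19 from those of Gm61344.

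The similarity of Akr1c12 and Akr1c13 extends upstream of the genes, which is why these stretches are shown. The 250 bases before each RefSeq transcription start, on GRCm38.p6, were identical at 95.1% of the 247 aligned columns. They lie at chr13:4279400-4279649 on the minus strand for Akr1c12 and at chr13:4190937-4191186 on the plus strand for Akr1c13. Capitals mark bases that differ between the pair or have no partner in the other within the aligned stretch.
Akr1c12: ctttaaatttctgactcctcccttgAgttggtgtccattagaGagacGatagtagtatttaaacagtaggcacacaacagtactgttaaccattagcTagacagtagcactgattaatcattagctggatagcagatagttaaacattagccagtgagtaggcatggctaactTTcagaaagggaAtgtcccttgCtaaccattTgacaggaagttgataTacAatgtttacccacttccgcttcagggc
Akr1c13: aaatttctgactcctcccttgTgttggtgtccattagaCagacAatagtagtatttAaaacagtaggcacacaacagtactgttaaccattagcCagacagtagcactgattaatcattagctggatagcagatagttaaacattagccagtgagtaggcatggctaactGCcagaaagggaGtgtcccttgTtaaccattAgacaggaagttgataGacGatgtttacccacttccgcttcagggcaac

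The upstream stretch of Akr1c18 is shown because this was the 1 member called higher in untreated HCC versus healthy livers. It lies at chr13:4150647-4150896 on the minus strand of GRCm38.p6, and capitals mark a TATA box (TATAA) from base -29 to base -25 relative to the start.
Akr1c18: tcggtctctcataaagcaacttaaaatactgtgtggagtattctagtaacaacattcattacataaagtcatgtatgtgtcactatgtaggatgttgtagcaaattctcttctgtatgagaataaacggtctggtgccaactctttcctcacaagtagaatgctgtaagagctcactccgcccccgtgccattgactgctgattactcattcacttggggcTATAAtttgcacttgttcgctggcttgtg

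Over promoters of 300 bases, 250 before and 50 after the start, TATAA was found on either strand in 24.9% of all 32851 promoters and in 3 of the 9 member promoters held in RefSeq (Akr1b8, Akr1c6 and Akr1c18). The antioxidant response element core TGACNNNGC, bound by NRF2, was found in 12.4% of all promoters and in 1 of the 9, Akr1c19, from base 8 to base 16 after the start on the opposite strand. The AP-1 letters TGANTCA and the E-box CACGTG were found in 7.81% and 7.15% of all promoters and in 0 of the 9. The antioxidant response element and AP-1 letters can overlap, since both begin with TGA. All 4 motifs were chosen with the members' values known. Matches of letters are a description of these windows only.

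The treatment agent was miR-22, whose mature strand miR-22-3p is shown with its seed, bases 2 to 8, in capitals (RefSeq, GRCm38.p6, chr11:75463772-75463793, plus strand).
miR-22-3p: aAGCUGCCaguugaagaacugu
The complementary site GGCAGCT was present in the 3′ UTR of the main transcript for 16.7% of 13679 tested genes and for 0 of the 10 members. The searched member 3′ UTRs ran from 179 bases in Akr1c18 to 4723 bases in Akr1c19.

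Total counts were 18258660 to 20964551 in healthy livers, against 18293676 to 23908392 in untreated and 16664659 to 20459853 in treated HCC. Counts were normalized by TMM (edgeR's trimmed mean of M values) and scaled to the mean library. A gene was called when its adjusted p from edgeR's quasi-likelihood test was under 0.05 and its fold change was over 1.5. Where listed genes or markers are counted as rising or falling, those called are counted unless another test is named. The plasmid labels name AKT without saying which of the Akt genes it is. Normalized counts of Akt1 were 2002 to 2105 in healthy livers, against 22700 to 32450 in untreated and 13030 to 21420 in treated HCC. Those of Nras, which the labels do name, were 520.8 to 574.5, 1228 to 1499 and 1034 to 1073. Mir22hg, the host gene of the endogenous miR-22, was at 1096 to 1375, 257.3 to 399.3 and 541.7 to 633.6. Mature miR-22 was not measured by these libraries.

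**Figure D1:**
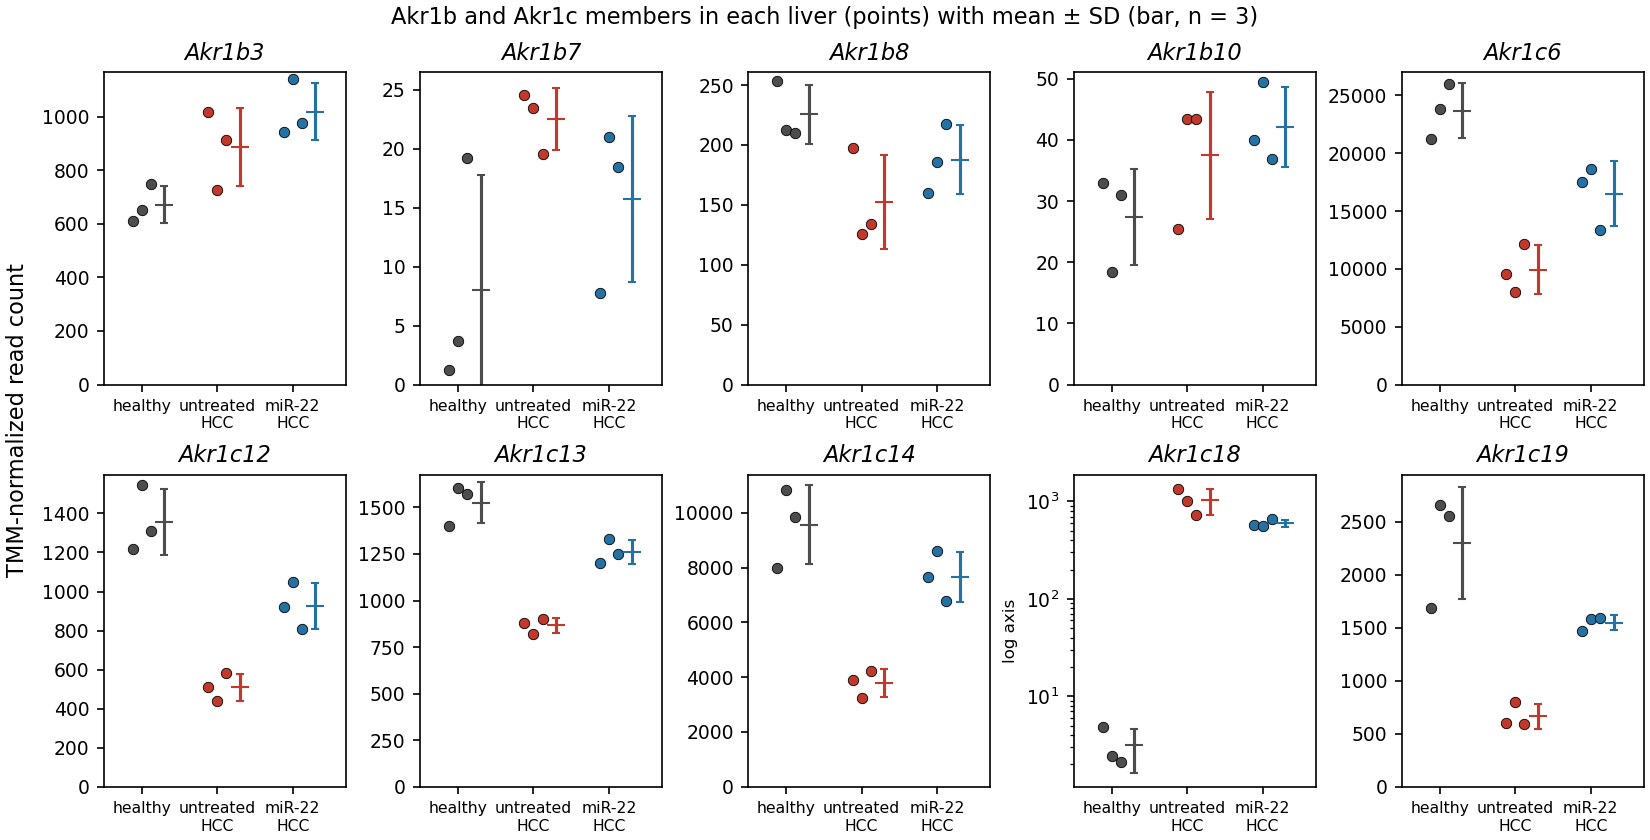
TMM-normalized read counts (y axis, linear from 0 except a log axis for Akr1c18) of the 10 members in each of 3 healthy, 3 untreated HCC and 3 miR-22-treated HCC livers (points), with the mean ± SD beside them (the Akr1b7 bar in healthy livers is clipped at 0). For Akr1c6, Akr1c12, Akr1c13, Akr1c14 and Akr1c19 the untreated HCC livers sit below both other groups, while Akr1c18 is near 0 in healthy livers alone.

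Levels per kb of main transcript compare genes only if each is expressed as its annotated main transcript, which was not tested. This transcript has 5735 bases for Akr1c19 and 3119 for Akr1c14, against 1268 for Akr1c12 and 1269 for Akr1c13. Akr1c6 had the highest level of the members in every group, at 17000 ± 1720 normalized counts per kb in healthy livers (mean ± SD, n = 3). Akr1c14 followed at 3070 ± 464. The ranges of Akr1c13 (1200 ± 86.4) and Akr1c12 (1070 ± 133) overlapped, though Akr1c13 was the higher within each liver. Akr1b3 at 476 ± 49.5 and Akr1c19 at 401 ± 92.8 did not differ beyond their spread. By normalized counts, not divided by length, Akr1c19 (mean 2298) was instead above Akr1c13 (1527) and Akr1c12 (1357) in healthy livers. Akr1b8 was at 165 ± 17.9 and Akr1b10 at 20.0 ± 5.77. Akr1b7 at 4.22 ± 5.13 and Akr1c18 at 2.57 ± 1.23 were the lowest and did not differ beyond their spread. In untreated HCC, Akr1c18 at 841 ± 254 per kb came after Akr1c6 at 7100 ± 1520 and Akr1c14 at 1210 ± 162 and ahead of the other members by mean. Akr1c13 at 683 ± 32.7 and Akr1b3 at 628 ± 104 came next. None of Akr1c14, Akr1c13 and Akr1b3 was separated from Akr1c18 by more than the spread between livers, though Akr1c14 was above Akr1c18 within each liver. In miR-22-treated HCC, Akr1c18 was at 489 ± 40.8 per kb, below Akr1c6 (11800 ± 2000), Akr1c14 (2460 ± 293), Akr1c13 (994 ± 49.8), Akr1c12 (730 ± 94.3) and Akr1b3 (722 ± 74.9).

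In untreated HCC compared with healthy livers, 5 of the 6 Akr1c members fell and Akr1c18 rose, while no Akr1b member was called. Over all genes tested, 40.8% were called, 22.7% higher and 18.1% lower. Of the 10 members, 1 was called higher and 5 lower, and since the members were chosen on these values nothing is read from that difference. The median log2 fold change of the members was -0.69, against 0.01 over all genes tested. The healthy and untreated HCC livers did not overlap in 8 of the 10 members. The share of all genes tested without overlap was not computed, so nothing is read from that count.

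Akr1c6, the 17β-hydroxysteroid dehydrogenase of mouse liver, was at 21230, 23840 and 26010 normalized counts in healthy livers and at 9579, 7976 and 12170 in untreated HCC. Every untreated HCC liver was below every healthy liver. The level fell by 1.26 on the log2 scale (SE 0.17), or 2.39-fold.

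Akr1c14, a 3α-hydroxysteroid dehydrogenase that inactivates dihydrotestosterone, was at 7998, 10850 and 9843 in healthy livers and at 3893, 3227 and 4218 in untreated HCC. The groups did not overlap, and the level fell by 1.34 on the log2 scale (SE 0.14).

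Akr1c19 showed the largest fall of the members. Its normalized counts were 1687, 2655 and 2553 in healthy livers and 602.8, 800.1 and 589.9 in untreated HCC. Healthy replicate 1 was the lowest of its group and still above all 3 untreated HCC livers. The log2 fold change was -1.79 (SE 0.16), a 3.46-fold lower level.

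The near-identical pair Akr1c12 and Akr1c13, reductases of broad substrate range, moved in the same direction but not by the same amount. Akr1c12 counts were 1216, 1544 and 1312 in healthy livers and 509.1, 440.4 and 580.5 in untreated HCC, a log2 fold change of -1.41 (SE 0.13). Akr1c13 counts were 1401, 1605 and 1573 in healthy livers and 880.1, 820.9 and 900.8 in untreated HCC, a log2 fold change of -0.82 (SE 0.09). Neither gene's groups overlapped. When the counts of the pair were added together before the fit, the sum fell by 1.07 (SE 0.10). How the division of shared reads bears on each gene's own value was not tested.

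Akr1c18, the 20α-hydroxysteroid dehydrogenase that inactivates progesterone, was near the floor of 3 counts in healthy livers, with raw counts of 4, 2 and 2. The summed 8 counts have an exact Poisson interval of 3.45 to 15.8 (95%, counting error only). In untreated HCC the normalized counts were 1352, 1009 and 730.5. The ratio of the summed counts, each divided by its group's summed effective library size (total count times TMM factor), was 324, with an exact interval of 164 to 751 that covers counting error only. The fitted log2 fold change of 8.32 (SE 0.34) depends on the prior count at such low levels. The 3 untreated HCC livers thus lay far above the healthy ones, but differed among themselves, with a coefficient of variation of 30.2%.

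Akr1b3, aldose reductase, was at 612.3, 652.7 and 748.3 in healthy livers and at 1018, 728 and 912.4 in untreated HCC. The groups overlapped through untreated replicate 3, and the log2 fold change of 0.40 (SE 0.13) did not reach 1.5-fold. Akr1b8, a fibroblast growth factor-regulated aldehyde reductase, was at 253.7, 212.7 and 210.0 in healthy livers and at 197.3, 126.0 and 134.1 in untreated HCC. Its groups did not overlap, yet the log2 fold change of -0.57 (SE 0.19) stayed just inside 1.5-fold. Without healthy replicate 2, healthy replicate 3 or untreated replicate 2 the value was -0.61, -0.63 or -0.79, and Akr1b8 was called.

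Akr1b10 counts were low, at 32.93, 18.34 and 30.91 in healthy livers and 25.46, 43.44 and 43.48 in untreated HCC, and the groups overlapped. Akr1b7, the vas deferens and adrenal member of the branch, was lower still. Its normalized counts were 1.22, 3.667 and 19.19 in healthy livers and 24.55, 23.46 and 19.57 in untreated HCC. Healthy replicate 3 was close to the untreated HCC livers, and the other healthy livers were far below. The log2 fold change of Akr1b7 was 1.42 (SE 0.65), and was not called. It was called without a filter on low counts (1.43). Leaving out healthy livers gave 0.92 (without replicate 1), 1.08 (without replicate 2) and 3.13, which was called (without replicate 3).

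Akr1b7, Akr1b8 and Akr1b10 added together gave a log2 fold change of -0.30 (SE 0.15) in untreated HCC versus healthy livers, which was not called.

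**Figure D2:**
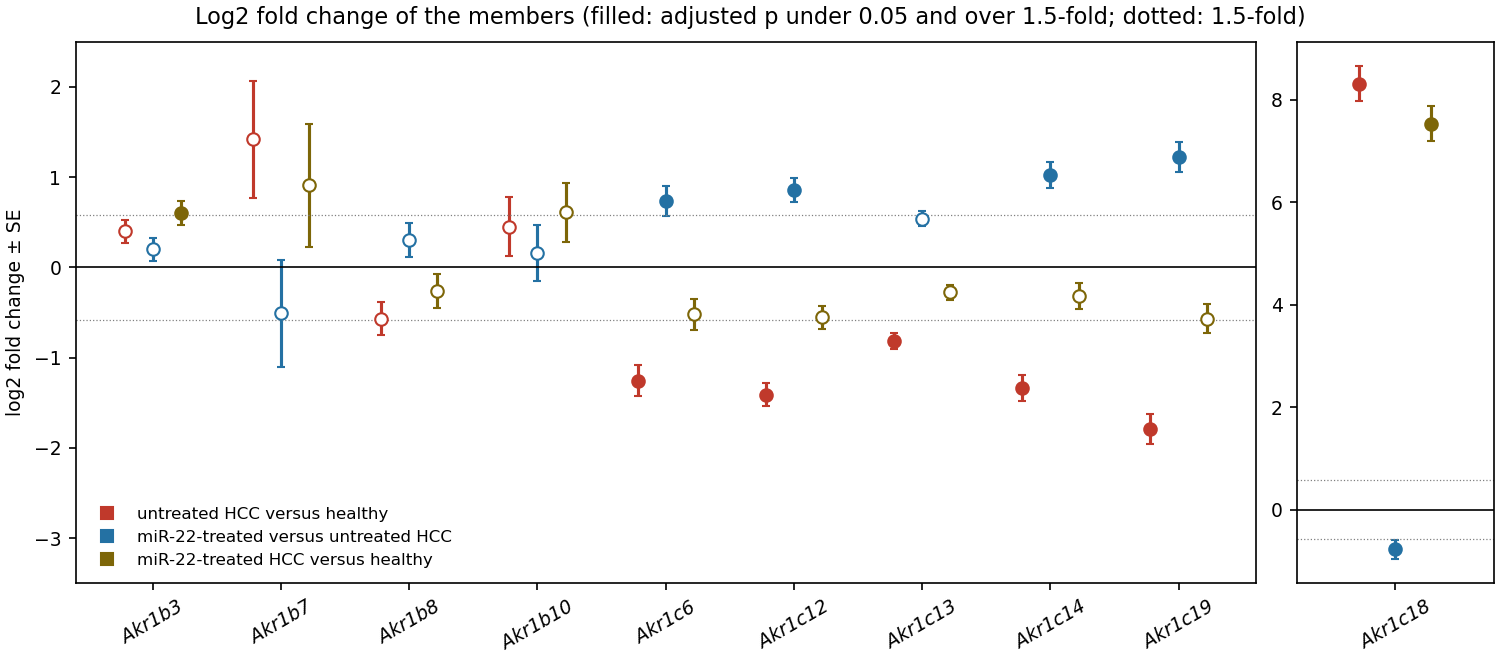
Log2 fold change ± SE (y axis) of each member in the 3 comparisons, from 1 edgeR fit to all 9 livers, with Akr1c18 on a scale of its own. Filled points are called (adjusted p under 0.05 and over 1.5-fold, the dotted lines). Of the Akr1c members all except Akr1c18 lie below 0 in untreated HCC versus healthy livers and above 0 in miR-22-treated versus untreated HCC.

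In miR-22-treated compared with untreated HCC, all 5 Akr1c members that were lower in untreated HCC were higher, 4 of them called, and Akr1c18 fell. Over all genes tested, 13.8% were called, 8.32% higher and 5.47% lower. These were 2167 genes, which became 1433 without treated replicate 3 and 958 with a replicate block, a term in the fit for the replicate number in the labels, which did not pair these livers. Of the 10 members, 4 were called higher, 1 lower and 5 in neither direction, and again nothing is read from the difference. Their median log2 fold change was 0.42, against 0.00 over all genes tested. Both comparisons use the same untreated HCC livers, so opposite signs in them are not independent of each other.

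Akr1c19 rose by 1.22 on the log2 scale (SE 0.16), the largest rise of the members, with normalized counts of 1470, 1580 and 1596 in miR-22-treated HCC. The 3 treated livers were close together and all above the untreated range. Akr1c14 reached 7648, 8594 and 6764 and rose by 1.02 (SE 0.14), or 2.03-fold. Akr1c12 reached 918.8, 1049 and 810.3 and rose by 0.86 (SE 0.13).

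Akr1c6 was at 17520, 18660 and 13360 in miR-22-treated HCC, all above the highest untreated liver at 12170. It rose by 0.74 (SE 0.17), and was not called with a replicate block (0.74). Akr1c13 was at 1204, 1329 and 1250 and did not overlap with untreated HCC. Its log2 fold change of 0.54 (SE 0.09) had the smallest standard error of the members but did not reach 1.5-fold. Together with Akr1c12 the log2 fold change was 0.67 (SE 0.10), which was called.

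Akr1c18 was at 578.1, 562.9 and 656.2 in miR-22-treated HCC, below all 3 untreated livers. Its level fell by 0.78 on the log2 scale (SE 0.18). Without untreated replicate 2, the liver with the highest Akr1c18, the log2 fold change was -0.54 and was not called, nor was it with a replicate block (-0.75). The treated livers remained far above healthy livers, with a ratio of summed counts, scaled in the same way, of 194 (exact interval 98.4 to 451, counting error only).

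Of the Akr1b members, none was called between the HCC groups, and all 4 overlapped. Akr1b3 was at 942.1, 1139 and 975.5 in miR-22-treated HCC (log2 fold change 0.20, SE 0.13). Akr1b8 was at 159.8, 185.6 and 217.8 (0.31, SE 0.19), and Akr1b10 at 39.95, 49.49 and 36.92 (0.16, SE 0.31), which became -0.051 without untreated replicate 2. Akr1b7 was at 7.768, 21.03 and 18.46 (-0.51, SE 0.60), with treated replicate 2 apart from the other two.

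In miR-22-treated HCC compared with healthy livers, 24.0% of all genes tested were called, 16.9% higher and 7.05% lower. Of the 10 members, 2 were called higher (Akr1b3 and Akr1c18), 0 lower and 8 in neither direction. The median log2 fold change of the members was -0.27, against 0.02 over all genes tested. The 5 other Akr1c members had log2 fold changes of -0.57 (Akr1c19) to -0.28 (Akr1c13), and none reached 1.5-fold. Akr1c19 was called lower with the DESeq2 Wald test (-0.60), with DESeq2 size factors (-0.60) and with a replicate block (-0.78). Without healthy replicate 1, Akr1c6 (-0.61), Akr1c12 (-0.64) and Akr1c19 (-0.77) were called lower, and without treated replicate 3, Akr1c6 (-0.62) and Akr1c12 (-0.65). Akr1c12 was called without healthy replicate 3 (-0.59) and Akr1c19 without treated replicate 4 (-0.59). Their treated and healthy livers did not overlap for Akr1c6, Akr1c12, Akr1c13 and Akr1c19, whereas they overlapped for Akr1c14.

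Akr1b3 in miR-22-treated HCC lay above all 3 healthy livers, with a log2 fold change of 0.60 (SE 0.13), or 1.52-fold. This call sat at the fold threshold. It was lost with DESeq2 size factors (0.57), with the DESeq2 Wald test (0.58), and without healthy replicate 1 (0.52), healthy replicate 2 (0.57) or treated replicate 3 (0.51). A replicate block gave 0.56 and no call. Akr1b10 was not called (0.61, SE 0.33), nor was Akr1b7 (0.91, SE 0.68), which was 0.41 without healthy replicate 1, 0.57 without healthy replicate 2, 0.42 with a replicate block, and 2.61 and called without healthy replicate 3.

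**Figure D3:**
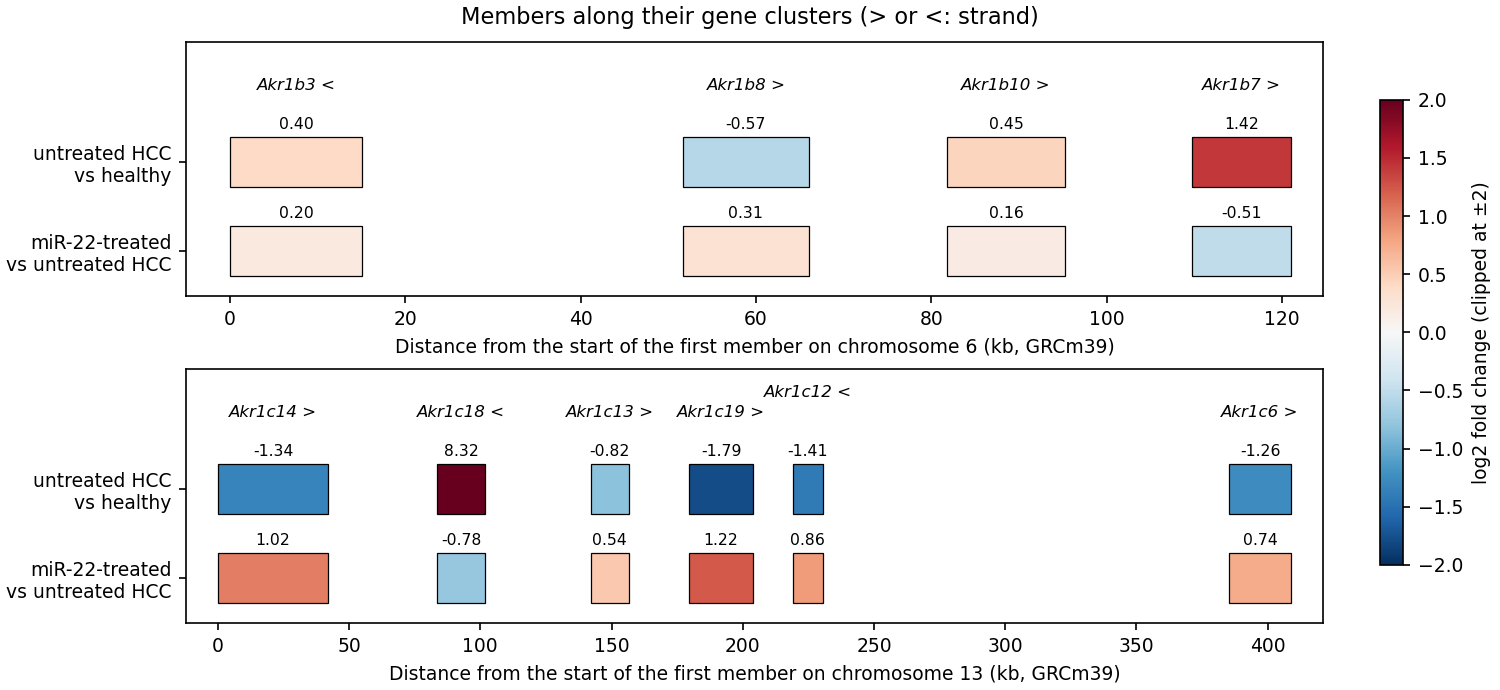
The 4 Akr1b members on chromosome 6 and the 6 Akr1c members on chromosome 13, drawn to scale by distance in kb from the first member's start (x axis), colored by log2 fold change, which is printed above each box. Akr1c18 lies between Akr1c14 and Akr1c13 and has the opposite sign to both neighbors in each row.

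Along the Akr1c cluster, Akr1c18 lies between Akr1c14 and Akr1c13, and both neighbors had log2 fold changes of the opposite sign in untreated HCC versus healthy livers and in miR-22-treated versus untreated HCC. On chromosome 6, Akr1b8 had a negative log2 fold change in untreated HCC while its neighbors Akr1b3 and Akr1b10 had positive ones. None of these 3 was called.

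Summed over the 6 Akr1c members, the level was 20130 to 24510 normalized counts per kb in healthy livers, against 8705 to 11940 in untreated and 14180 to 18730 in treated HCC. The 3 ranges did not overlap. Akr1c6 made up 72.7% to 76.0% of this sum in healthy livers, against 65.6% to 73.0% in untreated and 67.5% to 72.1% in treated HCC. Akr1c18 made up at most 0.0198% in healthy livers, against 4.99% to 10.6% in untreated and 2.45% to 3.78% in treated HCC. Akr1c19 made up 1.46% to 1.97%, 0.862% to 1.6% and 1.47% to 1.96%. By counts, not divided by length, its share was 5.03% to 6.56%, 3.07% to 5.61% and 4.97% to 6.53%.

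Summed over the 4 Akr1b members, the level was 633.3 to 716.4 normalized counts per kb in healthy livers, against 652 to 897.1 in untreated and 817.6 to 990 in treated HCC. Akr1b3 made up 67.4% to 74.0%, 79.1% to 82.2% and 77.9% to 81.7% of it. The share of Akr1b8 was 21.4% to 28.8% in healthy livers, against 12.5% to 16.1% in untreated and 13.7% to 17.9% in treated HCC. Fitted as 1 sum of counts, the Akr1b members were called in 0 of the 3 comparisons, with log2 fold changes of 0.24, 0.20 and 0.44.

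**Figure D4:**
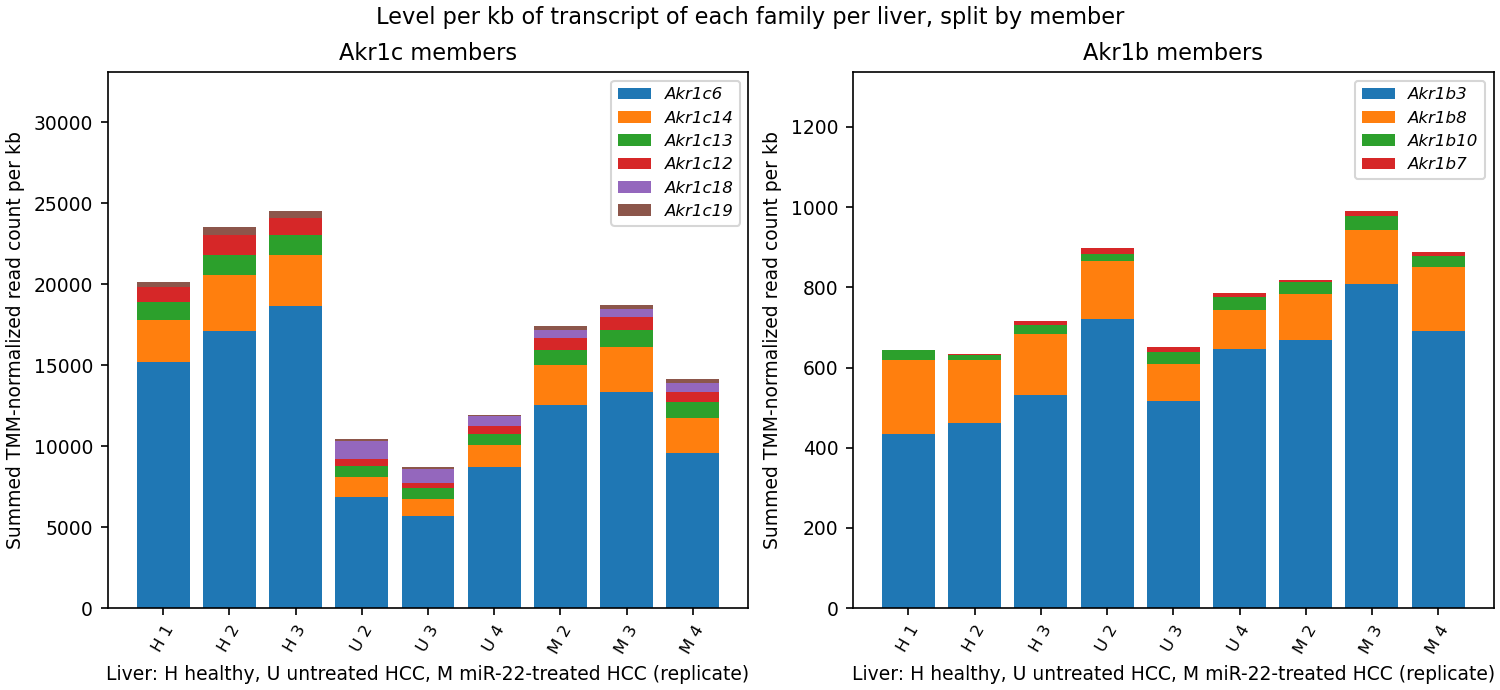
Summed level of the Akr1c members (left) and Akr1b members (right) in normalized counts per kb of transcript (y axis, from 0) in each liver (x axis), stacked by member. The Akr1c bars are 8705 to 11940 in untreated HCC, below those of both other groups, and the Akr1c18 layer is visible only in HCC livers.

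Hepatocyte markers moved in the direction of the Akr1c members other than Akr1c18, which went the opposite way in every comparison. All 10 listed markers (Alb and Ttr among them) were detected in every liver. Their summed level was 2635000 to 2745000 normalized counts in healthy livers, against 1032000 to 1319000 in untreated and 1592000 to 1995000 in treated HCC. In untreated HCC versus healthy livers 10 of 10 were called lower (median log2 fold change -1.26). In miR-22-treated versus untreated HCC 7 of 10 were called higher (median 0.83), and all 10 were higher at an unadjusted edgeR p under 0.05. In miR-22-treated HCC versus healthy livers 5 of 10 were called lower (median -0.44). In these bulk samples, fewer hepatocytes and less RNA per hepatocyte cannot be told apart.

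Taken within each liver, the summed counts of the 6 Akr1c members were 1.22% to 1.57% of the summed hepatocyte marker counts in healthy livers, against 1.38% to 1.52% in untreated and 1.53% to 1.62% in treated HCC. This ratio was chosen after the values were seen. For Akr1c6 it was 0.773% to 0.987%, 0.773% to 0.923% and 0.839% to 0.968%, so that the 3 groups overlapped. Akr1c13 was at 0.0511% to 0.0605% in healthy livers, against 0.0683% to 0.0796% in untreated and 0.0665% to 0.0785% in treated HCC, so that both HCC groups lay above the healthy livers. Akr1c12 was at 0.0443% to 0.0582%, 0.0427% to 0.0460% and 0.0508% to 0.0526%, and the treated livers lay above the untreated ones. Akr1c14 was at 0.291% to 0.409%, 0.313% to 0.352% and 0.422% to 0.431%, and the treated livers lay above both other groups. Akr1c19 was at 0.0615% to 0.100%, 0.0447% to 0.0776% and 0.0792% to 0.100%. Akr1c18 was at most 0.000178% in healthy livers, against 0.0554% to 0.122% in untreated and 0.0282% to 0.0412% in treated HCC.

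Cholangiocyte, stellate cell and stomach epithelium markers had summed levels in the same order of groups as Akr1c18, with no overlap. For 8 stellate cell markers the sum was 5230 to 5860 normalized counts in healthy livers, against 17470 to 20250 in untreated and 13310 to 16070 in treated HCC. Single stellate cell markers went both ways, with 5 called higher and 2 lower in untreated HCC versus healthy livers and 2 higher and 2 lower in miR-22-treated versus untreated HCC. For the 7 stomach markers found it was 18.29 to 41.57, 181.9 to 351 and 118.8 to 134.7, but Gkn1, Gkn2 and Muc5ac were at 0 counts in all 9 livers and only 2 of the 7 were tested. The cholangiocyte sum was 947.6 to 1176 normalized counts in healthy livers, against 65380 to 122300 in untreated and 30810 to 53150 in treated HCC. Of 7 cholangiocyte markers tested, 6 rose in untreated HCC versus healthy livers (median log2 fold change 3.63), and 5 fell in miR-22-treated versus untreated HCC (median -0.96). In miR-22-treated HCC versus healthy livers 4 rose (median 2.67). The part of these cell types in the Akr1c18 values was not tested.

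Steroidogenic cell markers, in which adrenal and gonadal enzymes are grouped, did not move in 1 direction. Cyp11a1 and Mc2r were at 0 counts in all 9 livers, and the summed level of the 8 markers was 587.3 to 776.2, 484.1 to 622.9 and 502.3 to 531.5. Of the 4 tested, 1 rose and 3 fell in untreated HCC versus healthy livers, 1 rose in miR-22-treated versus untreated HCC, and 1 rose and 2 fell in miR-22-treated HCC versus healthy livers. Their medians were -0.96, 0.18 and -0.78.

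Among the other aldo-keto reductases of the liver, Akr1d1, the steroid 5β-reductase of bile acid synthesis, fell from 10060 ± 1090 to 2053 ± 320 normalized counts in untreated HCC (mean ± SD, n = 3), a log2 fold change of -2.29 (SE 0.17, edgeR adjusted p = 2.8e-07). It rose to 4340 ± 902 in miR-22-treated HCC (1.08, SE 0.16, edgeR adjusted p = 0.00085), and was still lower there than in healthy livers (-1.21, SE 0.16, edgeR adjusted p = 0.00011). Akr7a5, an aldehyde reductase of another subfamily, fell in untreated HCC (-0.75, SE 0.11, edgeR adjusted p = 7.1e-05). Its later log2 fold change of 0.41 with miR-22 (edgeR adjusted p = 0.015) did not reach 1.5-fold.

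Akr1cl, an Akr1c-like gene on chromosome 1, had 0 counts in all 3 healthy livers and rose in untreated HCC to 44.66 ± 19.6 normalized counts, at least 12.7-fold higher than a floor of 3 counts per library. It was at 23.32 ± 4.22 in miR-22-treated HCC, at least 6.65-fold higher than the floor, and differed between the HCC groups by -0.94 (edgeR adjusted p = 0.12). Akr1c20, the neighbor of Akr1c6, had log2 fold changes of -0.56, 0.27 and -0.28 in the 3 comparisons, and none reached 1.5-fold. In untreated HCC versus healthy livers it was called lower with a replicate block (-0.69), without healthy replicate 1 (-0.66) and without untreated replicate 4 (-0.61). Akr1a1, an aldehyde reductase found in most tissues, stayed between 0.07 and 0.15 (log2), and Akr1e1, a reductase of 1,5-anhydrofructose, was at -0.20, 0.14 and -0.06. Akr1c21 had at most 8 counts per liver and was not tested. Of the 6 tested, 1 rose and 2 fell in untreated HCC versus healthy livers, 1 rose in miR-22-treated versus untreated HCC, and 1 rose and 1 fell in miR-22-treated HCC versus healthy livers. The medians were -0.38, 0.21 and -0.17, and were the same with Akr1cl at its bound.

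Genes of the polyol and fructose route, into which aldose reductase feeds, were read beside Akr1b3. Of 6 tested, 4 fell in untreated HCC (median log2 fold change -1.01), 3 rose with miR-22 versus untreated HCC (0.64), and 2 fell in miR-22-treated HCC versus healthy livers (-0.37). Sord, the sorbitol dehydrogenase that follows aldose reductase, fell by 2.12 (SE 0.15, edgeR adjusted p = 2.2e-07) and rose by 1.19 with miR-22 (SE 0.15, edgeR adjusted p = 0.00027). Fbp1, a gluconeogenic phosphatase, fell by 1.17 and rose by 0.71. Slc2a5, the fructose transporter, fell by 2.60 and rose by 1.48.

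Of 20 steroid and bile acid oxidoreductases, 15 fell and 1 rose in untreated HCC (median log2 fold change -0.99). With miR-22 versus untreated HCC 10 rose (median 0.66) and 0 fell by edgeR or DESeq2, or at an unadjusted p under 0.05, and in miR-22-treated HCC versus healthy livers 7 fell and 2 rose (median -0.37). Hsd11b1, which regenerates active glucocorticoid, fell by 2.00 (SE 0.17, edgeR adjusted p = 1e-06) and rose by 1.12 with miR-22. Cyp7b1 and Cyp27a1, oxysterol and bile acid hydroxylases, had log2 fold changes of -2.20 and -1.71 in untreated HCC and of 1.51 and 1.09 with miR-22. Hsd17b7 and Hsd3b5 were lower in miR-22-treated HCC than in healthy livers (-0.87 and -2.89, edgeR adjusted p = 0.00019 and 0.0024).

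Of 25 tested aldehyde and retinal enzymes, 16 fell and 4 rose in untreated HCC (median -0.83), 7 rose and 2 fell with miR-22 versus untreated HCC (0.41), and 4 fell and 3 rose in miR-22-treated HCC versus healthy livers (-0.32). Adh7, a retinol and alcohol dehydrogenase, fell by 2.53 and rose by 1.54. Dcxr, a carbonyl and xylulose reductase, fell by 1.87 and rose by 0.86, and Adh5 rose by 0.73 with miR-22. Aldh1a2, a retinaldehyde dehydrogenase, went from 4.728 ± 2.26 normalized counts in healthy livers to 135.2 ± 22 in untreated HCC (log2 fold change 4.82, SE 0.38, edgeR adjusted p = 4.8e-07). Bco1, which cleaves carotene to retinal, was higher in miR-22-treated HCC than in healthy livers by 0.67 (edgeR adjusted p = 0.00029).

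NRF2 target genes, which include detoxification and glutathione enzymes, were read in the same fit. Of 26 tested, 13 rose in untreated HCC (median 0.63) and 12 in miR-22-treated HCC versus healthy livers (0.50), while 1 fell between the HCC groups (-0.22). None fell against healthy livers by edgeR, although 3 and 4 were lower at an unadjusted p under 0.05. DESeq2 called 1 lower in miR-22-treated HCC versus healthy livers and 3 lower between the HCC groups. Gstm3 and Gstp1, glutathione transferases, rose by 3.91 and 2.53 in untreated HCC (SE 0.23 and 0.16, edgeR adjusted p = 6.4e-08 and 1.2e-07), and Srxn1, sulfiredoxin, rose by 1.81. Srxn1 fell by 0.59 with miR-22 (edgeR adjusted p = 0.0072), while G6pdx (-0.51) and Gstp1 (-0.54) did not reach 1.5-fold. Slc7a11, the cystine transporter, was not above the floor of 3 counts in any healthy liver and was at least 20.1-fold higher in miR-22-treated HCC.

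Of 19 tested regulators of aldo-keto reductase genes, 8 fell and 4 rose in untreated HCC (median -0.38), 6 rose with miR-22 versus untreated HCC (0.30), and 3 fell and 4 rose in miR-22-treated HCC versus healthy livers (-0.30). Nr1i3, the xenobiotic receptor CAR, fell by 2.91 (SE 0.25, edgeR adjusted p = 9.1e-07). The log2 fold change was -1.92 for Ppara, a fatty acid receptor, and -1.18 for Mafg, a small Maf protein gene. With miR-22, Ppara rose by 1.44 (SE 0.16, edgeR adjusted p = 0.00016), Cebpb by 1.07 and Bach1, a repressor of NRF2 targets, by 0.66. Compared with healthy livers, Mafk was higher by 1.09 and Nr1i3 lower by 1.32 in miR-22-treated HCC.

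**Figure D5:**
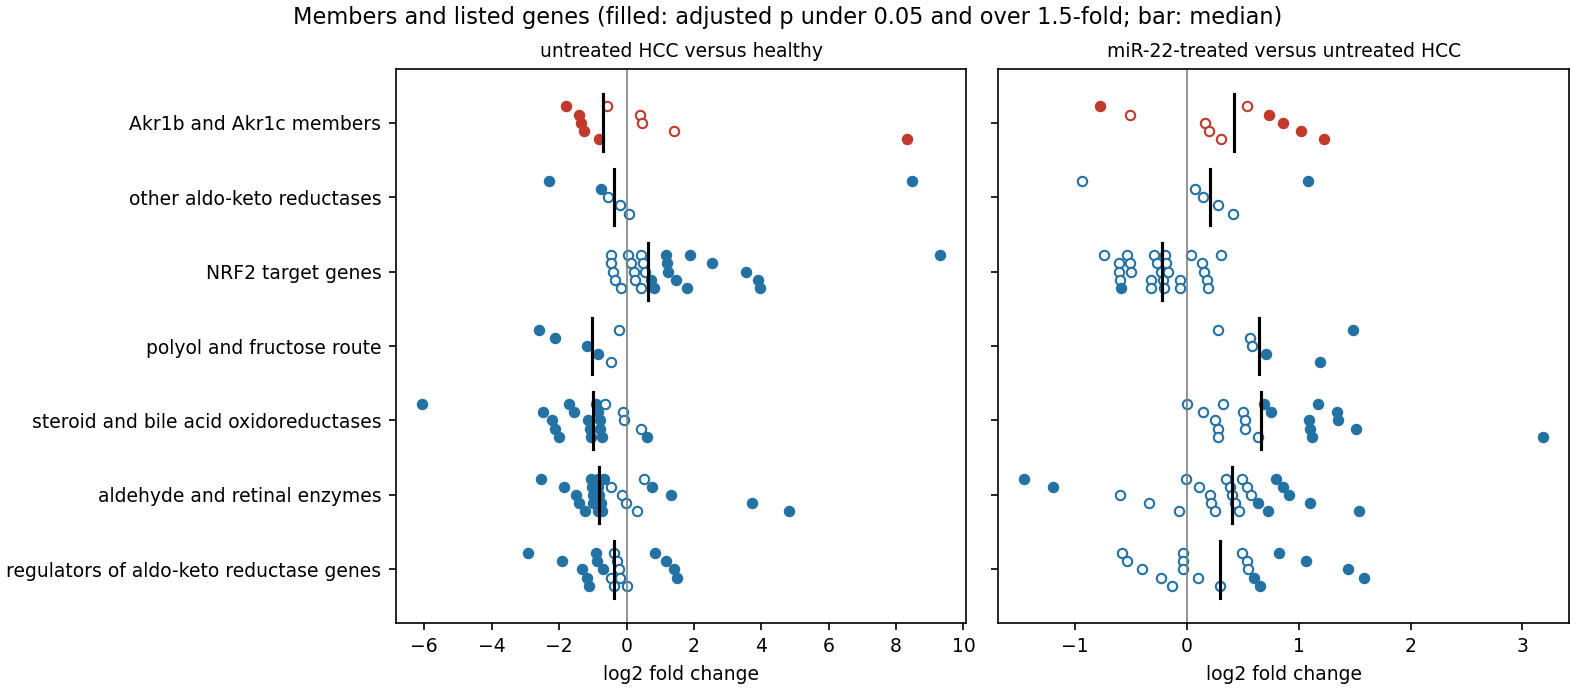
Log2 fold change (x axis) of the members (red) and of the tested genes of 6 lists (blue) in untreated HCC versus healthy livers (left) and miR-22-treated versus untreated HCC (right), 1 point per gene, with filled points called and a bar at each median. The median of the steroid and bile acid list is -0.99 on the left and 0.66 on the right, and that of the NRF2 targets is 0.63 and -0.22. The points of Akr1cl and Slc7a11 near 9 rest on healthy livers at or under the floor.

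For each member, the gene outside the family with the most similar profile was found by Pearson's r of log2 normalized counts over the 9 livers. These r values are a description, since the 3 groups stand apart and much of each r is the difference between them. They were Cyp4f14 for Akr1c6 (0.996), Crebl2 for Akr1c12 (0.997), Thrsp for Akr1c13 (0.995), Aadac for Akr1c14 (0.994) and Glt1d1 for Akr1c19 (0.980). For Akr1c18 it was Smpd3, at 1.00. In the Akr1b branch they were Psma1 for Akr1b3 (0.969), Gimap1 for Akr1b8 (0.939), Eipr1 for Akr1b10 (0.952) and Alg8 for Akr1b7 (0.972). Among the members, Akr1c12 and Akr1c13 were each other's nearest (0.986), and 124 and 30 of 15707 genes outside the members were nearer to them. The nearest member to Akr1c14, at 0.985, and to Akr1c19, at 0.964, was Akr1c13, and 22 and 35 outside genes were nearer.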

How the data were processed

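The authors deposited a table of gene counts for 9 livers, quantified with Salmon on paired-end reads of 150 bases from non-directional libraries and summed per gene with tximport. Their methods name GRCm39 with GENCODE release 25. The deposited counts are whole numbers, not normalized, and a second table of normalized values was not used. FastQC 0.11.7 and DESeq2 1.18 are named in the submitters' notes.

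Counts were fitted here with edgeR 4.0.16 (quasi-likelihood, TMM, filterByExpr, all 9 livers of 3 groups in 1 fit, R 4.3.3), with Benjamini-Hochberg adjustment over 15717 genes. The study's thresholds were kept (adjusted p under 0.05, fold over 1.5). The DESeq2 1.42.0 Wald test, other scalings, filters, sample sets, a replicate block and added paralog counts were tried as alternatives. The labels give 1 sample per number but do not tie libraries to separate extractions, so p-values measure the spread between these samples. On simulated counts for untreated HCC versus healthy livers (15373 genes), 87 of 95 genes changed 4-fold and 75 of 105 changed 2-fold were found, with 10 false calls. The simulation changed 200 genes, whereas 6417 were called in the real comparison, so these rates do not carry over to it.

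The members and all gene lists were chosen with earlier results of these data known. Named genes are the members, the other aldo-keto reductases, up to 3 genes of smallest p per further list and comparison, the gene nearest to each member, Akt1, Nras and Mir22hg, and markers at 0. Marker lists covered hepatocytes, cholangiocytes, macrophages, stellate, endothelial, T, stomach epithelial and steroidogenic cells. Levels per kb use the GENCODE vM39 canonical transcript. Identities were computed with Biopython pairwise alignment. Promoters and miR-22 are from RefSeq (GRCm38.p6). The promoter of Akr1b3 was not analysed here. Genome coordinates were never converted between builds.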

Additional observations from a re-analysis of the deposited data

How the results depend on the processing

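The replicate numbers 2, 3 and 4 shared by the HCC groups did not pair the livers: same-number deviations correlated at -0.12, -0.13 and -0.24, and the labels give no shared batch. With a replicate block, miR-22-treated versus untreated HCC gave 958 genes in place of 2167, and 3 members in place of 5 (Akr1c6, 0.74, and Akr1c18, -0.75, were not called). The block uses 2 groups and, against healthy livers, only numbers 2 and 3, where it gave 6518 and 3193 genes, and where Akr1b3 (0.56) was lost and Akr1c19 (-0.78) gained in miR-22-treated HCC. Without the fold threshold, genes called were 3777 for miR-22-treated versus untreated HCC and 5732 for miR-22-treated HCC versus healthy livers, in place of 3772, and 6 members in place of 2. With at least 10 counts in every library, 1 member was called there, since Akr1c18 was not tested. Leaving out 1 liver gave 1433 (without treated replicate 3) to 2660 genes (without treated replicate 4) for miR-22-treated versus untreated HCC, and 1 (without healthy replicate 2) to 4 members (without healthy replicate 1 or 3) for miR-22-treated HCC versus healthy livers. Akr1b10 between the HCC groups ran from -0.051 (without untreated replicate 2) to 0.28, in place of 0.16. The cause of these changes was not tested. The sum of Akr1b7, Akr1b8 and Akr1b10 (-0.30, 0.21 and -0.086 in the 3 comparisons) was opposite in sign to Akr1b7 throughout and to Akr1b10 against healthy livers. Since Akr1b8 holds most of these counts, the sum gives the direction of Akr1b8 and bears on neither of the others. Of the values of members under the alternatives, 480 kept direction and side of the threshold, 24 passed it anew, 9 lost it and 6 turned, all but 1 of them in this sum. The summed healthy counts of 8 for Akr1c18 and 22 for Akr1b7 limit their fold changes.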

Other observations

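Markers of further liver cell types were read from the same edgeR fit. Of 8 stellate cell markers, 5 rose and 2 fell in untreated HCC versus healthy livers (median log2 fold change 2.09), 2 rose and 2 fell in miR-22-treated versus untreated HCC (-0.43), and 5 rose in miR-22-treated HCC versus healthy livers (1.59). Of 8 macrophage markers, 1 rose and 1 fell in untreated HCC versus healthy livers and 1 rose in miR-22-treated HCC versus healthy livers (0.04 and 0.09). Between the HCC groups 0 macrophage markers were called by edgeR or DESeq2 (median 0.14), and 3 were higher at an unadjusted p under 0.05. Of 8 endothelial markers, 3 fell in untreated HCC (-0.28), 1 rose with miR-22 versus untreated HCC (0.31), and 1 rose and 1 fell in miR-22-treated HCC versus healthy livers (-0.05). Of 8 T cell markers, 1 rose in untreated HCC by edgeR (0.20) and 0 by DESeq2. In both other comparisons 0 were called by edgeR or DESeq2, and 0 had an unadjusted p under 0.05 (medians -0.10 and 0.15).

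Stomach epithelium, a tissue that expresses several aldo-keto reductases, was checked through 8 markers. Gkn1, Gkn2 and Muc5ac were at 0 counts in all 9 livers, and Gif was not found in the table under that symbol. Of the 2 tested, 2 rose in untreated HCC versus healthy livers (median 3.01), 1 fell in miR-22-treated versus untreated HCC (-0.68) and 2 rose in miR-22-treated HCC versus healthy livers (2.34).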
